A study of Mus musculus with 3 samples.

Results

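The 10 heat shock chaperones described here are Hspa1a, Hsp90aa1, Hsph1, Dnajb1, Hspa8, Hsp90ab1, Hspa5, Hspd1, Hspe1 and Dnaja1. They were taken by symbol from count tables that hold 15635 genes in all, and each of the 10 was found in every table. Microglia sorted from mouse brain were profiled by single-cell RNA sequencing, with 1 library from hCD33m mice, 1 from hCD33M mice and 1 from control mice. CD33 is a sialic acid-binding receptor of myeloid cells. hCD33M is its long human isoform, and hCD33m is the short isoform that lacks the glycan-binding domain. The transgenic mice, aged 8 weeks like the control mice, carried Rosa26-Stop fl/fl-hCD33m or Rosa26-Stop fl/fl-hCD33M, switched on in the microglial lineage by Cx3cr1Cre and coupled to GFP. The control mice were wild type by their label and on the same C57BL/6 background, and the label does not say whether they carried Cre. By the study's methods each library pooled 2 mice, cells were sorted as CD11b+CD45lowCx3cr1+, and all brains were handled in ice-cold buffers with blockers of transcription (actinomycin D, triptolide) and of translation (anisomycin). The hCD33m mice came from 1 clone of embryonic stem cells.

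Chaperones bind unfolded or newly made proteins and help them reach or keep their shape. Some are made by every cell at rest, whereas others are switched on by heat and other protein-damaging stress, when heat shock factor 1 (HSF1) is released from chaperones and binds heat shock elements, repeats of the letters GAA and TTC, near its target genes. Microglia are the resident macrophages of the brain, and their chaperone and immediate early genes are known to respond to warming and handling after the brain is removed. Chaperone levels were therefore compared between libraries, between cell states and between cells with and without transcripts of Fos, an immediate early gene.

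Each genotype was 1 sample, so that spread between mice or isolations could not be measured and no test across samples was made. Levels are given as CPM, a gene's share of all UMIs in the cells considered, scaled to a total of 1000000, where a UMI (unique molecular identifier) marks 1 captured transcript. Intervals are exact 95% intervals for counting error only, which leave out differences between cells, mice and isolations. After cells with more than 8000 genes or more than 10% mitochondrial UMIs were removed, 6068 hCD33m, 5710 hCD33M and 5891 control cells remained, with 38555874, 32899506 and 31396051 UMIs. The median cell held 4881 UMIs in hCD33m, 4215.5 in hCD33M and 4303 in control. Between 4 and 10 cell barcodes were shared by any pair of libraries. The labels give the hCD33m mice as female and the others as male, whereas the study's text describes male mice for every genotype. The hCD33m library listed Xist at 0 UMIs and held 94.7 CPM of the Y-linked gene Ddx3y, beside 105 CPM in hCD33M and 94.8 CPM in control. All 10 microglia markers were found in each library, at summed levels of 26600 CPM in hCD33m, 28672 in hCD33M and 28823 in control, so the sorted cells carried the genes of the labelled tissue. RNA of blood cells differed: 5 erythroid markers summed to 0.13 CPM in hCD33m, 221 in hCD33M and 0 in control, and 7 neutrophil markers to 65.2, 99.97 and 465 CPM.

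Promoter sequence is shown for the members whose window holds a heat shock or endoplasmic reticulum (ER) stress element, since these elements are what sets the inducible genes and Hspa5 apart in textbooks. The RefSeq windows (GRCm38.p6) run from 250 bases before to 50 bases after a start site, and 7 of the 10 members had at least 1. Hspa8, Hsp90aa1 and Hsp90ab1 had none in the table. A heat shock element of 3 units was searched as GAANNTTCNNGAA and TTCNNGAANNTTC, which covers both strands, and was held by 0.603% of 32851 windows. The 2-unit form, GAANNTTC or TTCNNGAA, lies within the 3-unit form and was held by 15.1% of windows, so a match to it says little. The ER stress response element, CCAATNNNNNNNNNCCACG on either strand, was held by 0.119%. Matches are a description of letters and not of binding. Capitals mark the 3-unit element in Hspe1 and Hsph1, the 2-unit element in Hspa1a and Dnaja1 and the ER stress element in Hspa5.
Hspe1, chr1:55087898-55088197, plus strand: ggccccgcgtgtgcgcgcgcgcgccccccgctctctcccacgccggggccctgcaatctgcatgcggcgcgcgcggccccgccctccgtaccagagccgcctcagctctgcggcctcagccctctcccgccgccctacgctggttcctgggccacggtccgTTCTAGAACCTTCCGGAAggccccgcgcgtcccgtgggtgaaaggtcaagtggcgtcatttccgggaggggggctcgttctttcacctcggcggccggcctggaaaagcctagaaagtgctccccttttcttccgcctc
Hsph1, chr5:149636287-149636586, minus strand: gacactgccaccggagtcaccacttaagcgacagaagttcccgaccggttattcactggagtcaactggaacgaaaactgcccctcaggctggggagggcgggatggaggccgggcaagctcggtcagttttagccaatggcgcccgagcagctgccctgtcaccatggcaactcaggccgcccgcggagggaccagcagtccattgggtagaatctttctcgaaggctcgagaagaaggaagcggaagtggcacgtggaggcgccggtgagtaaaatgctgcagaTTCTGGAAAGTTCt
Hspa1a, chr17:34972107-34972406, minus strand: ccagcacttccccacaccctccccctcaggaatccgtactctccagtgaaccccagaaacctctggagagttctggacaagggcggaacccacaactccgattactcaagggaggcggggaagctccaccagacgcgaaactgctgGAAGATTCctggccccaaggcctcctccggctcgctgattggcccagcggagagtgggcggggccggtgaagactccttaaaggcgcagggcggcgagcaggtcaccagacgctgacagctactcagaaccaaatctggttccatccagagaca
Dnaja1, chr4:40722218-40722517, plus strand: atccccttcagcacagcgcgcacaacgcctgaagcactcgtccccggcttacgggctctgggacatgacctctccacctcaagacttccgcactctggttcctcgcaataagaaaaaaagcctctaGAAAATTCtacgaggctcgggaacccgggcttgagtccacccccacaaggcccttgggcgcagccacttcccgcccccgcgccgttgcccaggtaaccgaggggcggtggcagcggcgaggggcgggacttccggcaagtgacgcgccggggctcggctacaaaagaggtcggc
Hspa5, chr2:34771840-34772139, plus strand: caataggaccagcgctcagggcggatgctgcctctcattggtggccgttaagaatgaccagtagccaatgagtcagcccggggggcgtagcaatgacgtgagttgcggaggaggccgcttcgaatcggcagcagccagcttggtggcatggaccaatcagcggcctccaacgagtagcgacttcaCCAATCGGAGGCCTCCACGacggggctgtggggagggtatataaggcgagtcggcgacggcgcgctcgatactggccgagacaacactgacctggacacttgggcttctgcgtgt

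Hspe1 and Hspd1, the pair that builds the mitochondrial folding chamber, lie head to head on chromosome 1, and a window of Hspd1 on the minus strand shares 285 bases with the Hspe1 window above. The capitals in it are 2 overlapping 3-unit elements, between 89 and 71 bases before the Hspe1 start. The Hsph1 element lay 36 bases after the annotated start. The Hspa5 element ended 46 bases before the start, just before a TATA-like stretch. Dnajb1 (2 windows) and Fos (1 window) held none of these letters. In all, 3 of the 7 members held the 3-unit form, 5 the 2-unit form and 1 the ER stress element. The members with the 3-unit form did not differ alike between libraries: Hsph1 had log2 ratios to control of 0.94 in hCD33m and 1.31 in hCD33M, and Hspe1 and Hspd1 had ratios of at most 0.23.

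Summed over the 10 members, chaperones took 3072 CPM in hCD33m, 3908 in hCD33M and 2601 in control. Both transgenic libraries were above control, hCD33M more so, by a log2 ratio of 0.24 (0.23 to 0.25) for hCD33m and 0.59 (0.57 to 0.60) for hCD33M. The members did not share 1 order of libraries. Hspa8, Hsp90ab1, Hspa5, Hsp90aa1 and Hsph1 were highest in hCD33M, while Hspa1a and Dnajb1 were highest in hCD33m, the order that Fos also took. Dnaja1 was nearly equal in both transgenic libraries and lower in control, and Hspd1 and Hspe1 were nearly level.

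**Figure D1:**
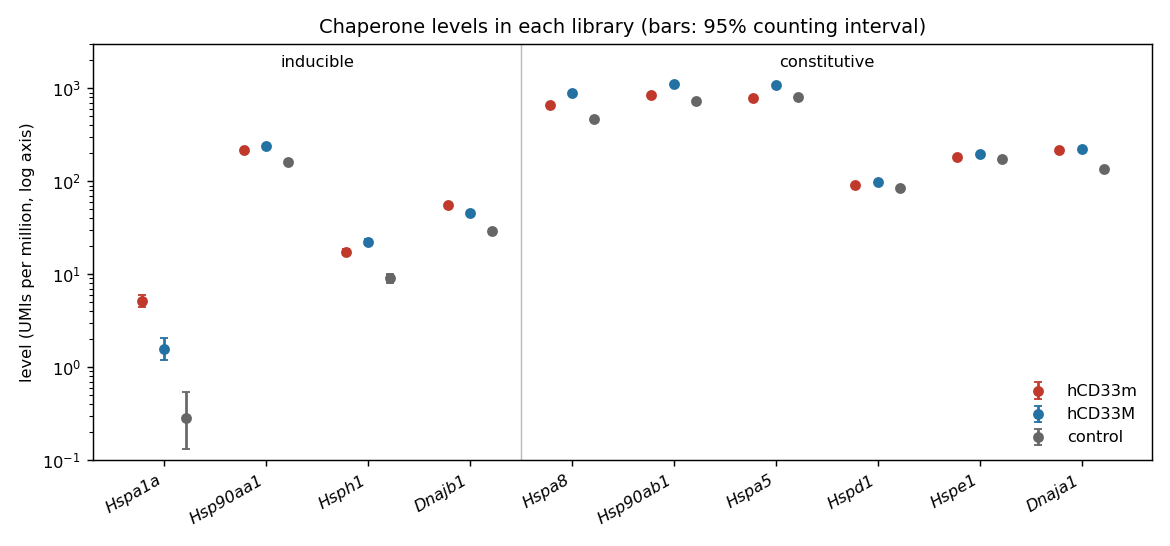
Level of each chaperone (CPM, log axis) in the hCD33m, hCD33M and control libraries, 1 point per library with its exact 95% counting interval, often smaller than the point. Hspa1a spreads widest, at 5.16, 1.58 and 0.29 CPM, while Hspd1 and Hspe1 lie almost level across libraries.

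Of the inducible members, Hspa1a (chr17:34969190-34972156), the strictly inducible HSP70, was close to silent. It had 199 UMIs in 124 hCD33m cells, 52 UMIs in 44 hCD33M cells and 9 UMIs in 9 control cells, or 5.16 CPM (4.47 to 5.93), 1.58 CPM (1.18 to 2.07) and 0.29 CPM (0.13 to 0.54). The ratio to control was 18.0-fold (9.30 to 39.95) in hCD33m and 5.51-fold (2.69 to 12.7) in hCD33M, and the intervals of all 3 levels stood apart. With every library under 20 CPM it was not among the genes read against the 1.5-fold limit. Its neighbour and near copy Hspa1b gave 2.02 CPM in hCD33m, 1.61 in hCD33M and 0.29 in control, and so differed between both transgenic libraries by less than its counting error (log2 ratio 0.33, -0.19 to 0.86). Although 56.3% of the 60-base windows of the Hspa1a transcript occur in Hspa1b, none of those in its last 500 bases do, where this 3' assay reads.

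Dnajb1 (chr8:83608193-83612653), the HSP40 that delivers clients to HSP70, had 55.1 CPM (52.8 to 57.5) in hCD33m, 46.0 CPM (43.7 to 48.3) in hCD33M and 28.9 CPM (27.1 to 30.9) in control. None of these intervals overlapped. At equal depth, 8.48% of hCD33m cells, 6.56% of hCD33M cells and 4.01% of control cells carried a UMI of it, against 24.6%, 19.3% and 12.6% before thinning. Thinning here means that each cell was drawn down to 1600 UMIs, with 914 hCD33m, 1474 hCD33M and 1457 control cells of fewer UMIs left out.

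Hsph1 (chr5:149614287-149636376), the HSP110 that recharges HSP70 with ATP, had 17.3 CPM in hCD33m, 22.3 CPM in hCD33M and 9.01 CPM in control. Its order was that of Hsp90aa1 (chr12:110690605-110702728), the stress-inducible cytosolic HSP90, with 215 CPM in hCD33m, 240 CPM in hCD33M and 161 CPM in control. Both were thus highest in hCD33M, unlike Hspa1a and Dnajb1, although all 4 are counted as inducible.

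Among the constitutive members, Hspa8 (chr9:40800984-40810087), the HSP70 that every cell makes, had the largest ratio to control in hCD33M. It had 658 CPM (650 to 667) in hCD33m, 885 CPM (875 to 895) in hCD33M and 467 CPM (459 to 475) in control, and at equal depth 60.2%, 67.8% and 47.1% of cells carried it. Hsp90ab1 (chr17:45567775-45573271), the constitutive cytosolic HSP90, had 839 CPM in hCD33m, 1115 CPM in hCD33M and 730 CPM in control. Dnaja1 (chr4:40722150-40737149), an HSP40 partner of Hspa8, had 219 CPM (215 to 224) in hCD33m, 221 CPM (216 to 226) in hCD33M and 136 CPM (132 to 141) in control. Between the transgenic libraries the intervals overlapped for Dnaja1 and not for Hspa8 or Hsp90ab1.

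Hspa5 (chr2:34771970-34777547), the HSP70 of the ER lumen also known as BiP, set hCD33M apart from both others. It had 788 CPM (779 to 796) in hCD33m, 1083 CPM (1071 to 1094) in hCD33M and 810 CPM (801 to 821) in control. It was the member whose ratios to control had opposite signs, with log2 ratios of -0.04 (-0.07 to -0.02) in hCD33m and 0.42 (0.39 to 0.44) in hCD33M. Hspd1 (chr1:55077835-55088243), the mitochondrial HSP60, had 91.5 CPM in hCD33m, 98.5 CPM in hCD33M and 83.9 CPM in control. Its lid Hspe1 (chr1:55088132-55091307) had 185 CPM in hCD33m, 196 CPM in hCD33M and 174 CPM in control. Their log2 ratios to control lay between 0.08 and 0.23, and the pair that shares a promoter kept the same order of libraries.

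A member was counted as higher or lower where its ratio reached 1.5-fold (0.58 on the log2 scale) and the log2 interval stayed clear of 0, among genes with at least 20 CPM in either library. Of 8 members measured so in hCD33m against control, 2 were higher, Dnajb1 by a log2 ratio of 0.93 (0.82 to 1.04) and Dnaja1 by 0.69 (0.63 to 0.74), and 0 were lower. Over all 6798 genes measured the shares were 0.868% higher and 0.397% lower. Hspa1a and Hsph1 fell under the 20 CPM limit. Without that limit they would make 4 members, at log2 ratios of 4.17 and 0.94.

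In hCD33M against control, 5 of 9 measured members were higher and 0 lower, beside 0.633% higher and 0.441% lower among 6798 genes. They were Hsph1 at a log2 ratio of 1.31 (1.11 to 1.51), Hspa8 at 0.92 (0.89 to 0.95), Dnaja1 at 0.70 (0.64 to 0.75), Dnajb1 at 0.67 (0.55 to 0.79) and Hsp90ab1 at 0.61 (0.59 to 0.63). Hsph1 was measured here through its 22.3 CPM in hCD33M alone. Over the 8 members measured in both comparisons with control, 2 were higher in hCD33m and 4 in hCD33M. Hsp90aa1 lay just under the limit at 0.58 (0.53 to 0.63), or 1.49-fold. Between the transgenic libraries no measured member reached 1.5-fold in either direction, beside 0.561% higher and 0.251% lower among 6779 genes. The closest were Hspa5 at -0.46 (-0.48 to -0.44), Hspa8 at -0.43 and Hsp90ab1 at -0.41 for hCD33m against hCD33M, all lower in hCD33m with intervals clear of 0. Hspa1a, under the 20 CPM limit in both, was higher in hCD33m by a log2 ratio of 1.71.

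**Figure D2:**
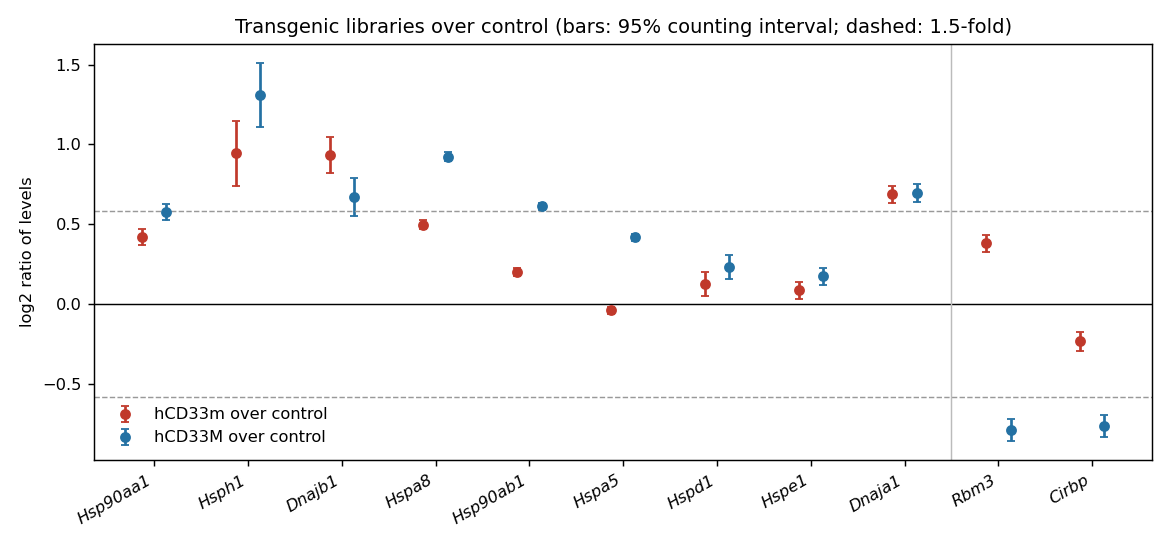
Log2 ratio of levels, hCD33m over control and hCD33M over control, for 9 chaperones and the cold-inducible genes Rbm3 and Cirbp, with exact 95% counting intervals and dashed lines at 1.5-fold. Dnajb1 is the chaperone with the higher ratio in hCD33m (0.93 against 0.67), and Rbm3 and Cirbp lie below the lower line in hCD33M alone, at -0.79 and -0.77.

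As a set, the 4 inducible members had a median log2 ratio to control of 0.94 in hCD33m and 0.99 in hCD33M, and the 6 constitutive members one of 0.16 in hCD33m and 0.51 in hCD33M. Hspa1a and Hsph1 in hCD33m and Hspa1a in hCD33M stand in these medians although under 20 CPM, and over the measured inducible members the median was 0.67 in both (2 members in hCD33m and 3 in hCD33M). The median over all genes measured was 0.01 in both comparisons. The inducible sum was 292 CPM in hCD33m, 310 CPM in hCD33M and 199 CPM in control, a log2 ratio of 0.55 in hCD33m and 0.64 in hCD33M, and the constitutive sum 2780, 3598 and 2402 CPM. For hCD33m against hCD33M the summed log2 ratio was -0.08 (-0.12 to -0.04) for inducible and -0.37 (-0.38 to -0.36) for constitutive members, so what separated the summed levels of the transgenic libraries was mostly Hspa8, Hsp90ab1 and Hspa5. Single inducible members ran from -0.36 for Hsph1 to 1.71 for Hspa1a.

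Other genes of the same pathways, where measured at 20 CPM or more, differed from control by less than 1.5-fold. Of 28 further HSF1 targets and co-chaperones of HSP70 and HSP90, 19 were measured in hCD33m against control and 20 in hCD33M against control, and 0 passed in either, with medians of 0.13 and 0.07. The largest were Chordc1, an HSP90 co-chaperone, with 89.2 CPM in hCD33m, 92.8 in hCD33M and 62.8 in control, Dnajb4, an HSP40, with 87.4, 82.9 and 61.6 CPM, and Stip1, which bridges HSP70 and HSP90, with 35.6, 45.3 and 31.3 CPM. All 3 were above control in both transgenic libraries by less than 1.5-fold. Hspb1, a small heat shock protein, had 2.65 CPM in hCD33m, 0.94 in hCD33M and 0.25 in control, the same order as Hspa1a and as far under the limit. Its ratio to control was 10.4-fold (5.07 to 24.7) in hCD33m and 3.70-fold (1.66 to 9.31) in hCD33M, with 8 UMIs in control.

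Of 19 ER chaperones and genes of the unfolded protein response measured, 4 lay above control in hCD33m and 17 in hCD33M, with medians of -0.18 and 0.15. None passed 1.5-fold in either comparison. For hCD33m against hCD33M the median was -0.33, with 1 of 19 genes above 0 and 1 passing. Pdia6, which forms disulfide bonds, had 372 CPM in hCD33m, 556 in hCD33M and 491 in control, and Creld2 had 43.1, 69.9 and 51.2 CPM and was the gene that passed, lower in hCD33m than in hCD33M (log2 ratio -0.70). Dnajb9, an HSP40 of the ER, differed from these in being above control in both, at 91.1, 99.3 and 76.8 CPM.

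Lists for other compartments differed little. Mitochondrial chaperones and proteases (6 measured of 7) had medians of -0.06 in hCD33m and -0.03 in hCD33M, with Hspa9, Dnaja3 and Trap1 all within 0.14 of control on the log2 scale. Subunits of the cytosolic TRiC/CCT chamber (7 measured of 8) had medians of 0.07 and 0.11, with Cct7, Cct5 and Cct3 the largest at up to 0.22. None of either list passed.

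Genes outside the chaperones moved with the same libraries. Immediate early genes passed for 19 of 29 measured in hCD33m and for 14 of 28 in hCD33M, with medians of 0.90 and 0.54. Fos had 532 CPM in hCD33m, 252 in hCD33M and 59.8 in control, Klf2 had 188, 86.1 and 24.7 CPM and Fosb had 285, 139 and 42.6 CPM. The cold-inducible RNA-binding genes moved the other way in hCD33M: Rbm3 had 178 CPM in hCD33m, 79.2 in hCD33M and 137 in control, and Cirbp had 119, 82.3 and 140 CPM. Both were thus lowest in the library where Hspa8, Hsp90ab1 and Hspa5 were highest. Genotype and the isolation of each library cannot be told apart here, and the part of what moved these genes in the chaperone values was not tested.

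Cells were grouped into 12 clusters without the chaperone or immediate early genes among the clustering genes. Clusters 0, 1, 2, 3, 6, 8 and 10 were called microglia-like and cluster 9 border associated macrophage-like, by their markers, and clusters 4, 5, 7 and 11 stayed unnamed, although cluster 4 held 9 microglia markers and cluster 7 held 5. Cluster 4 (median 1049.5 UMIs per cell) and cluster 5 (722 UMIs) held few UMIs, cluster 7 was led by hemoglobin genes and Cst7, and cluster 11 by S100a8 and S100a9. Cluster 4 was left unnamed for its few UMIs, whereas cluster 3, also with 9 microglia markers and a median of 1812 UMIs, was named. Cells of clusters 4 and 5 made up 554 and 204 cells in hCD33m, 749 and 462 in hCD33M and 569 and 702 in control.

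Inside nearly every cluster the main chaperones were above control in both transgenic libraries. Hspa8 was above control in 12 of 12 clusters for hCD33M and in 11 for hCD33m, with the exception in cluster 11, where it was high in all 3 libraries (1226 CPM in hCD33m, 1302 in hCD33M and 1234 in control). Hsp90ab1 was above control in 12 clusters for hCD33M, each with an interval above 0, and in 11 clusters for hCD33m, with 8 intervals above 0. Dnajb1 was above control in 12 clusters for both transgenic libraries, with log2 ratios of 0.36 to 2.54 in hCD33m and 0.08 to 1.79 in hCD33M. Of these intervals 8 of 12 lay above 0 in hCD33m and 5 of 12 in hCD33M. It was higher in hCD33m than in hCD33M in 11 of 12 clusters, cluster 8 being the exception, but with 2 of 12 intervals above 0. Clusters of 1 library share its preparation and are not replicates of it.

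Hspa5 kept its own pattern across clusters. It was above control in 12 of 12 clusters for hCD33M, with a median log2 ratio of 0.39, but in 5 of 12 for hCD33m, with 4 intervals above 0 and 4 below. Hspd1 and Hspe1 had 0 and 2 of 12 intervals above 0 in hCD33m and 5 and 4 in hCD33M, and Hspd1 in hCD33M came to 0.66 (0.15 to 1.17) in cluster 3 and 0.58 (0.17 to 1.00) in cluster 7. In microglia-like cells alone the counts were again 2 higher in hCD33m and 5 in hCD33M, and they were the same without clusters 4 and 5 and with equal cluster weights. Blood cell RNA within microglia-like cells was not removed, and its part in these values was not tested.

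**Figure D3:**
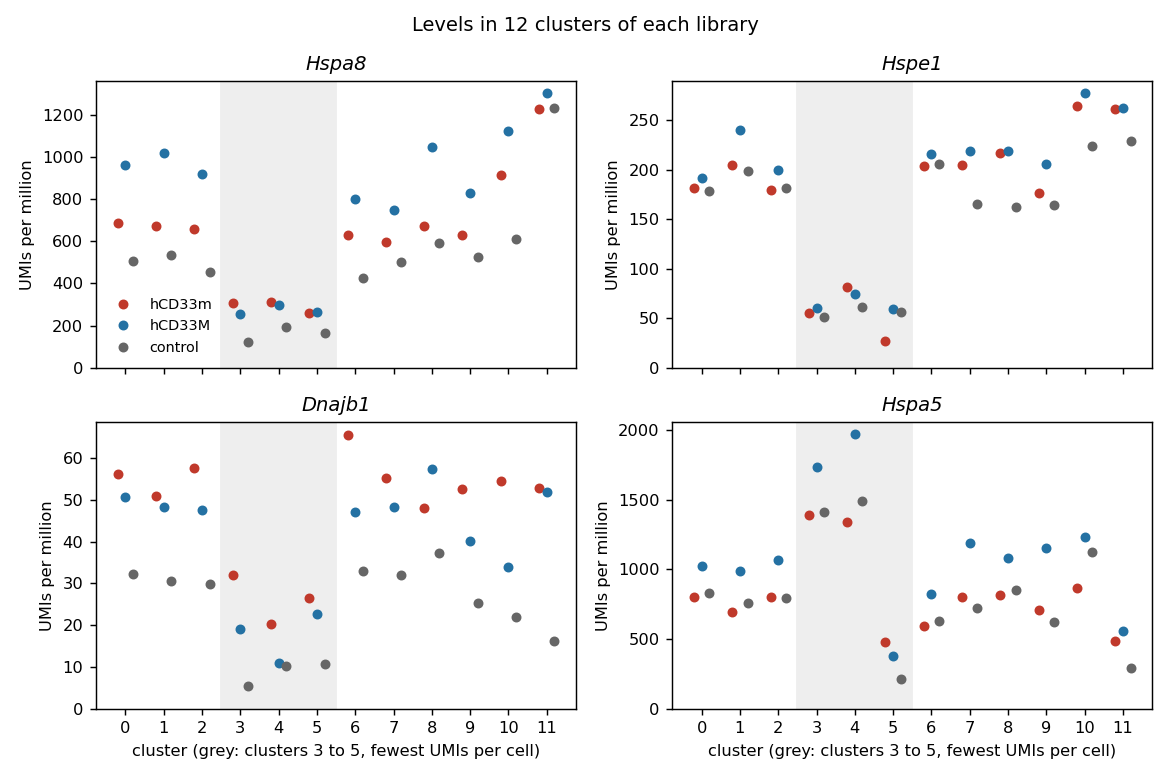
Levels of Hspa8, Hspe1, Dnajb1 and Hspa5 (CPM) in 12 clusters, 1 point each for hCD33m, hCD33M and control, with grey behind the 3 clusters of fewest UMIs. Hspa8, Hspe1 and Dnajb1 drop in the grey clusters of every library, while Hspa5 peaks in clusters 3 and 4.

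Among microglia-like clusters, levels differed mainly between cluster 3 and the others. Over the 6 microglia-like clusters with at least 50 cells in each library, the mean of the 3 library levels spanned more than 2-fold for 10 of 10 members, 8 of them with at least 20 CPM on average, beside 34.2% of 6546 genes at that level. Without cluster 3 the span reached 2-fold for 0 of these 8 members, with spans of 1.09-fold to 1.34-fold, beside 2.24% of genes. Among these 6 clusters the 2-fold spans of the 8 members thus lay in cluster 3. Without it their median span was 1.15-fold, below the 1.27-fold median of all genes at that level. Hspa1a, still over 2-fold, rests there on few UMIs, with 0 to 4 per cluster in control. In hCD33m it had 12.5 CPM from 27 UMIs in cluster 6 and 3.73 CPM from 21 UMIs in cluster 1. The lowest was cluster 3 (median 1812 UMIs per cell) for 8 of them, cluster 1 for Hspa1a and cluster 6 for Hspa5. Hspe1 spanned most, 3.87-fold, with 215 CPM in cluster 1 and 55.5 CPM in cluster 3, and Hspa8 spanned 3.35-fold, with 771 CPM in cluster 8, led by interferon-induced genes, and 230 CPM in cluster 3. With the coarser grouping at resolution 0.4 the cells of few UMIs fell outside the 4 microglia-like clusters compared, and 0 of 10 members spanned 2-fold.

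Hspa5 ran against the 8 members that were lowest in cluster 3. It was highest in cluster 3, at 1511 CPM, and lowest in cluster 6, at 684 CPM. Clusters 3 and 4 together had 1363 CPM of Hspa5 in hCD33m, 1819 in hCD33M and 1436 in control, against 783, 1039 and 798 CPM in clusters 0 to 2, a log2 ratio of 0.80, 0.81 and 0.85. Hspa1a, from 1 to 4 UMIs per library in cluster 3, gave no clear direction. In the same cells Hspe1 stood at -1.45, -1.64 and -1.76 and Hspa8 at -1.11, -1.81 and -1.75. The other ER genes went the way of Hspa5, with medians of 0.37 in hCD33m, 0.35 in hCD33M and 0.41 in control, and the TRiC/CCT subunits the other way, with -1.35, -1.52 and -1.66, while all genes had -0.31, -0.35 and -0.31. Hsp90b1, the HSP90 of the ER, had 2292 CPM in cluster 3 and 2533 CPM in cluster 4 as the mean of libraries, against 1323 CPM in cluster 0. The leading genes of cluster 3 included Malat1 and mitochondrial genes, and the part of depth and RNA quality in this pattern was not tested.

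Cluster 10, led by the chemokines Ccl3 and Ccl4, was small (100 hCD33m, 22 hCD33M and 40 control cells) and so stood outside that span. It had the highest mean level of Hsp90aa1 (388 CPM), Hsp90ab1 (1430 CPM), Hspd1 (159 CPM) and Hspe1 (255 CPM) among the 12 clusters. For Hsp90aa1 its libraries had 370 CPM in hCD33m, 548 CPM in hCD33M and 246 CPM in control, so the library order held there too. Cluster 11 had the highest mean of Hspa8, at 1254 CPM, and with cluster 5 the lowest of Hspa5, at 443 and 356 CPM.

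Within a library, no measured chaperone was 1.5-fold higher in cells that carried Fos transcripts. At 1600 UMIs per cell, 2226 of 5154 hCD33m cells (43.2%), 1160 of 4236 hCD33M cells (27.4%) and 341 of 4434 control cells (7.69%) had a Fos UMI. Before thinning the shares were 63.1%, 44.1% and 17.7%. Cells with a Fos UMI were then set against cells without one in the same library, Fos itself being left out of the totals.

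By this split 0 of 8 measured members were higher in hCD33m, 0 of 9 in hCD33M and 0 of 8 in control, while 0, 0 and 1 were lower, with median log2 ratios of -0.01, 0.01 and -0.05. Over all genes 0.501% were higher and 0.162% lower in hCD33m, 0.767% and 0.678% in hCD33M and 1.91% and 1.77% in control. Hspa8 had 628 CPM in hCD33m cells with Fos and 637 CPM in those without, and 849 and 841 CPM in hCD33M. Hsp90ab1 had 811 and 803 CPM in hCD33m, and 1052 and 1073 CPM in hCD33M. In hCD33m the same split did separate other immediate early genes, though not all by 1.5-fold. Fosb had 421 CPM in hCD33m cells with Fos and 203 CPM in those without, a log2 ratio of 1.05 (0.93 to 1.17). Egr1 had 0.54 (0.46 to 0.61) and Jun 0.42 (0.38 to 0.46) in hCD33m, both under 1.5-fold and near the 0.51 of Dnajb1 there.

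Of the measured members, Dnajb1 had an interval above 0 in hCD33m: 68.6 CPM in cells with Fos and 48.2 CPM in cells without, a log2 ratio of 0.51 (0.24 to 0.78). It stayed under 1.5-fold, and was 0.23 (0.10 to 0.35) when all UMIs of the same cells were used and 0.02 when cells were thinned to 1000 UMIs. In hCD33M it was -0.14 (-0.54 to 0.24) and in control 0.17 (-0.67 to 0.91). Whether the libraries differ in this was not tested. Hspa1a in hCD33m had 8.15 CPM with Fos and 3.42 CPM without, from 29 and 16 UMIs, a log2 ratio of 1.26 (0.33 to 2.23), larger than that of Dnajb1, and 0.65 (0.23 to 1.08) with all UMIs, at 6.53 and 4.15 CPM. It was over 1.5-fold but not counted, being under the 20 CPM limit. With all UMIs, hCD33m cells of 0, 1, 2 and 3 or more Fos UMIs had 4.15, 5.03, 7.06 and 9.87 CPM of Hspa1a. In control Hspd1 passed as lower with Fos (51.4 and 84.1 CPM from 28 and 551 UMIs, log2 ratio -0.71, -1.32 to -0.16), which came to -0.22 (-0.46 to 0.01) with all UMIs and turned to 0.53 in cells thinned to 1000.

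**Figure D4:**
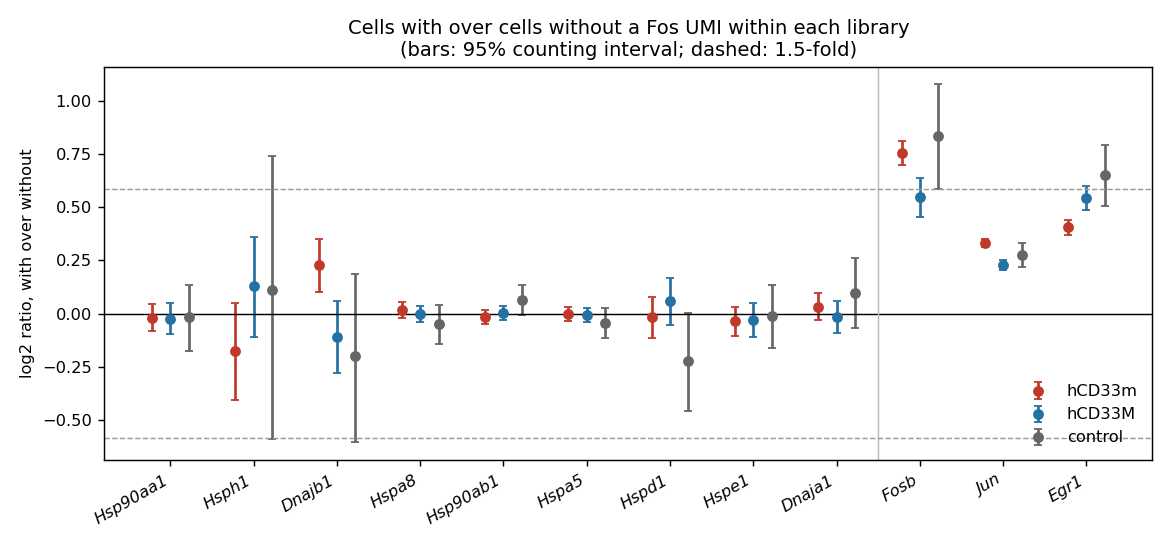
Log2 ratio of levels in cells with over cells without a Fos UMI, within the hCD33m, hCD33M and control libraries, from all UMIs of cells classed at 1600 UMIs, with exact 95% counting intervals. The chaperones shown, which leave out Hspa1a, lie near 0, with Dnajb1 in hCD33m at 0.23, while Fosb, Jun and Egr1 lie above 0 in every library.

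The difference from control was about as large in cells without Fos for Hspa8 and Dnaja1, and for Hsp90ab1 in hCD33M. Among cells with no Fos UMI at 1600, the log2 ratio to control of Hspa8 was 0.46 in hCD33m and 0.92 in hCD33M, against 0.53 and 0.97 in cells with one. For Dnaja1 it was 0.67 and 0.72 in cells without Fos, against 0.61 in both libraries in cells with it. Hsp90ab1 had 0.19 and 0.61 without, and 0.11 and 0.55 with. Hspd1 had 0.10 in hCD33m and 0.19 in hCD33M without Fos, and 0.30 and 0.47 with it. Hsph1 in hCD33m had 1.02 without and 0.74 with. For both genes these intervals overlapped between cells without and with Fos. Dnajb1 had 0.79 (0.65 to 0.92) in hCD33m cells without Fos and 1.21 (0.83 to 1.62) in those with it, intervals that overlap. For hCD33m against hCD33M, Dnajb1 was 0.10 (-0.02 to 0.22) without Fos and 0.44 (0.27 to 0.61) with it, intervals that do not overlap. Hspa1a, under 20 CPM, had 1.26 (0.70 to 1.85) and 2.27 (1.41 to 3.26) in that comparison. Whether cells with and without Fos differ in this was not tested.

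Across cells, the correlations of chaperone counts with Fos counts were close to 0. Pearson's r of log2(UMI + 1) at 1600 UMIs ran from -0.02 to 0.05 over the 10 members in hCD33m, from -0.02 to 0.03 in hCD33M and from -0.04 to 0.01 in control, and Spearman's rho from -0.02 to 0.05, -0.01 to 0.02 and -0.04 to 0.01. The highest was Dnajb1 in hCD33m. For Fosb and Fos, r was 0.24 in hCD33m, 0.14 in hCD33M and 0.04 in control. Among the 45 pairs of members, r ran from -0.01 to 0.09 in hCD33m, from -0.05 to 0.17 in hCD33M and from -0.07 to 0.10 in control, with Hspa8 and Hsp90ab1 the highest pair in each. These are descriptions of sparse counts, in which most low members are seen in few cells.

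Hspa1a, though rare, was not spread evenly. In hCD33m, 17 cells with 3 or more of its UMIs held 36.7% of all its UMIs, whereas no control cell had more than 1 and only 1 hCD33M cell had 3 or more. With 9 Hspa1a UMIs in all of control and 52 in hCD33M, against 199 in hCD33m, unevenness cannot be compared between libraries. These 17 cells held a median of 12770 UMIs, against 4847.5 in hCD33m cells without Hspa1a, and 8 of them lay in cluster 2. They carried 1 UMI of Hspa1b, or 4.35 CPM (0.11 to 24.2), against 1.70 CPM in hCD33m cells without Hspa1a. Of Hspb1 they carried 0 UMIs (interval up to 16.0 CPM) against 2.60 CPM, so neither gene gave a direction. Several other chaperones had intervals that took in the level of cells without Hspa1a: Dnajb1 at 65.2 CPM (36.5 to 108) against 54.7 CPM in cells without Hspa1a, Hsph1 at 13.04 CPM (2.69 to 38.1) against 17.4 CPM, and Hsp90aa1 at 222 CPM (165 to 292) against 213 CPM. Dnaja1 was above, at 335 CPM (264 to 418) against 217 CPM, as were Hspa8, at 770 CPM (660 to 892) against 655 CPM, and Hspa5, at 913 CPM (794 to 1045) against 785 CPM. The other 107 hCD33m cells with Hspa1a, with 1 or 2 UMIs each and 63.3% of its UMIs, held a median of 8688 UMIs. They had more Hspa1b than cells without Hspa1a, at 10.4 CPM (5.67 to 17.4) against 1.70 CPM, and more Hspa8 (740 against 655 CPM), Hsp90aa1 (246 against 213 CPM) and Dnaja1 (263 against 217 CPM), with intervals above the level in cells without it. Fos had 666 CPM (623 to 711) in these 107 cells and 552 CPM (460 to 657) in the 17 cells, against 527 CPM in hCD33m cells without Hspa1a. The cells were picked by Hspa1a counts after these were seen.

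Over sums of each cluster in each library (30 sums of at least 50 cells), the genes most like the inducible total were Hspa8 (Pearson r 0.94), Atf4 (0.92), Fkbp4, an HSP90 co-chaperone (0.92), Dnaja1 (0.90) and Nfe2l2 (0.90), out of 6589 genes with at least 20 CPM on average. That total was mostly Hsp90aa1, with 215 of 292 CPM in hCD33m. Of its own members, Hsp90aa1 had an r of 0.99, Dnajb1 0.96, Hsph1 0.69 and Hspa1a 0.51. Those most like the constitutive total were Ghitm (0.90), Manf (0.89), Sdf2l1 (0.89), Leprotl1 (0.85) and Dhrs3 (0.85), of which Manf and Sdf2l1 act in the ER. Hspa5 was unrelated to the inducible total, at -0.05, whereas Hsp90ab1, Hspd1 and Hspe1 had 0.88, 0.86 and 0.78. The sums share libraries, depth and clusters, and r is given as a description. Atf4 and Nfe2l2 had 129 and 329 CPM in hCD33m, 114 and 299 in hCD33M and 108 and 275 in control.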

How the data were processed

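The deposited files hold raw UMI counts per gene and cell for 3 libraries made with the 10x 3' chemistry, 1 per genotype. Per the study's methods, the authors aligned reads to mm10 with Cell Ranger and imported the counts into Seurat, with a minimum of 200 genes per cell and of 3 cells per gene, so that a gene listed at 0 may have been filtered. No normalization was applied to them. Cells with more than 8000 genes or more than 10% mitochondrial UMIs were removed here, 189 barcodes in hCD33m, 210 in hCD33M and 272 in control; doublets were not called.

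UMIs were summed per library, cluster or Fos class and scaled to a total of 1000000 (CPM). Levels have exact Poisson intervals (95%) and ratios exact conditional binomial ones, both for counting error alone. Clusters were found over all cells with scanpy 1.11.5 and leidenalg 0.10.2 (2000 variable genes, 15 components, 20 neighbours, resolution 0.8), with the members, the other lists, sex-linked and mitochondrial genes left out. A cluster took the name of the cell type with the most listed markers (3 or more, above 20 CPM and at least 50% of the top cluster level). It stayed unnamed if its 10 leading genes spoke for another type. It also stayed unnamed if its cells held few UMIs for their library and no marker of the type was among the leading genes. That last part left out cluster 4, at a median of 0.237 of the library median UMIs, but not cluster 3, at 0.416. This rule was chosen with earlier results known. The code was tested on simulated data. TMM factors came from edgeR 4.0.16, and figures from matplotlib 3.10.9.

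The members and lists were chosen with earlier results of these data known. Named genes are the 10 members, Fos, up to 3 genes per other list with the largest ratio to control in either transgenic library at 20 CPM or more in both libraries compared, and the 5 genes most like each member set. Hspa1b, Hspb1, Hsp90b1, Fosb, Jun, Egr1, Xist and Ddx3y were added after their values were seen. Gene positions are from GENCODE M21 by symbol. For library comparisons 11 alternatives were set, for the Fos comparison 6 and for clusters 5, and 3 were added after seeing the data.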

Additional observations from a re-analysis of the deposited data

Results flagged for a closer look

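Hspa5 differed between the transgenic libraries in the sign of its ratio to control, with log2 ratios of -0.04 in hCD33m and 0.42 in hCD33M and of -0.46 between them. With 1 library per genotype, this difference was not tested. In hCD33m Hspa5 was near level with control, at 0.97-fold, and its sign varied between sets of cells. It was above control in 5 of 12 clusters, with 4 intervals above 0 and 4 below. In the removed barcodes its log2 ratio was 0.22 (0.09 to 0.35).

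Barcodes that the filters removed (189 in hCD33m, 210 in hCD33M and 272 in control) belong to no comparison. The gene limit removed 22 of them in hCD33m, 36 in hCD33M and 8 in control, and the mitochondrial limit 167, 174 and 264. The removed sets thus differ in make-up between libraries, and the part of this in the ratios below was not tested. Within these sets chaperone ratios to control again lay above 0 in both transgenic libraries, but not every interval did. The share over all genes in these barcodes was not measured. In hCD33m against control the log2 ratio was 1.24 for Dnajb1, 0.88 for Hspa8 and 0.92 for Dnaja1. Other members stayed under 1.5-fold there, with intervals that took in 0 for Hsph1 (0.43, -0.58 to 1.55), Hspd1 (0.43, -0.02 to 0.90) and Hspe1 (0.19, -0.10 to 0.49). Hspa1a had 0 UMIs in the removed control barcodes and so gave no ratio. In hCD33M against control it was 0.61 for Hsp90aa1, 1.06 for Hsph1, 0.67 for Dnajb1, 1.41 for Hspa8, 0.81 for Hsp90ab1 and 1.04 for Dnaja1. Hspa8 had 649 CPM in the removed hCD33m barcodes and 938 CPM in those of hCD33M, against 352 CPM in those of control.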

How the results depend on the processing

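The counts of chaperones passing 1.5-fold were 2 in hCD33m and 5 in hCD33M against control in microglia-like cells, in all barcodes, with at least 2000 UMIs, with 500 to 4000 genes, with TMM factors, without mitochondrial genes, Malat1 and Gm42418 in the totals, with equal cluster weights and without clusters 4 and 5. As a mean over cells the counts were 4 in hCD33m and 4 in hCD33M, in cells thinned to 1600 UMIs 2 and 4, at 2-fold 0 and 1, and with no minimum CPM 4 and 6. With no minimum CPM, 1 member, Hspa1a, was higher in hCD33m than in hCD33M. Cells of few UMIs weigh more in a mean over cells. Over 360 ratios of single members between libraries, 355 kept their sign and 314 stayed within the counting interval. No measured member passed as higher with a Fos UMI in any library under any of 7 alternatives, and 144 of 199 such ratios kept their sign. Hspa1a in hCD33m, under the 20 CPM limit and so not counted, had log2 ratios of 0.65 to 1.67 over these alternatives. The control Hspd1 ratio reversed to 0.53 in cells thinned to 1000 UMIs. Between clusters the count over 2-fold was 10, 0 at resolution 0.4, where cells of few UMIs fell in an unnamed cluster, and 1 (Hspa1a) without cluster 3, an alternative chosen after seeing the data. No paired analysis was possible because each genotype is 1 library, so leaving out a replicate was not possible either. Depth limits Hspa1a most, with 9 UMIs in control.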
